A study of Mus musculus with 3 samples.

Results

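Angiogenic ligands are secreted factors with which a tumour signals to blood and lymph vessels. Here they are 10 genes of 34591 in a raw count table, chosen by symbol: Vegfa, Vegfb, Vegfc and Pgf of the VEGF family, the angiopoietins Angpt1 and Angpt2, the angiopoietin-like gene Angptl4, Pdgfa and Pdgfb of the PDGF family, and adrenomedullin, Adm. All 10 symbols were found. The table holds 3 poly(A) RNA libraries of 4T1, an established mouse mammary carcinoma line. The cells carry the genotype WISP2 OE, an over-expression of the matricellular protein WISP2, and no other group, time or dose was measured in them. Per the labels' protocols, tumour cells received packaged vectors and puromycin selection, but the construct described there is that of Wisp1. Whether the WISP2 line is 1 clone or a pool is not given in the sources used here. Empty-vector 4T1 cells are the study's comparison and were not analysed here, so the values describe a state of the over-expressing cells and no effect of WISP2. They are named C1, C2 and C3 after the endings of the column names.

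VEGF-A acts on endothelial cells mainly through the receptor KDR and is induced by hypoxia through HIF. VEGF-B and placental growth factor (Pgf) bind FLT1, and VEGF-C binds FLT4, through which it drives the growth of lymph vessels. Angiopoietins act through the endothelial receptor TEK: Angpt1 stabilises vessels and Angpt2 is its context-dependent antagonist. PDGF ligands act on pericytes and fibroblasts, which carry PDGFRB and PDGFRA, and adrenomedullin is a vasodilator peptide received by CALCRL together with RAMP2 or RAMP3.

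Of the 5 ligands with the largest spread between libraries for their level (described further on), Vegfa, Vegfc and Adm have a promoter entry in which the sequence ahead of the start lies in no annotated exon of the gene. They are shown beside Vegfb, the ligand with the highest level per length. Each is the 250 bases before the start site, from RefSeq on GRCm38.p6 and on the gene's strand. Capitals mark GGGCGG or its reverse complement CCGCCC, the core bound by SP1 and related zinc finger factors; neighbouring matches may touch.
Vegfa (minus strand, chr17:46032378-46032627): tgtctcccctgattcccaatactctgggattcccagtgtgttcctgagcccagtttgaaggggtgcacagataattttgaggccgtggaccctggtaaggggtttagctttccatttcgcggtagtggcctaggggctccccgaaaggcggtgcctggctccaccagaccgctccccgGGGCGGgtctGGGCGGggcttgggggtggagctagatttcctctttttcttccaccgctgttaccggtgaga
Vegfc (plus strand, chr8:54077282-54077531): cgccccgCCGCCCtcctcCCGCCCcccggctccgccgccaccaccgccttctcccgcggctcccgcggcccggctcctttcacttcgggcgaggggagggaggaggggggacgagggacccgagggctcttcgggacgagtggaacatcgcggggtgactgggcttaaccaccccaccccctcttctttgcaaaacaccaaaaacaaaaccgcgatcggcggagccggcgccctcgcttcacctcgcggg
Adm (plus strand, chr7:110627407-110627656): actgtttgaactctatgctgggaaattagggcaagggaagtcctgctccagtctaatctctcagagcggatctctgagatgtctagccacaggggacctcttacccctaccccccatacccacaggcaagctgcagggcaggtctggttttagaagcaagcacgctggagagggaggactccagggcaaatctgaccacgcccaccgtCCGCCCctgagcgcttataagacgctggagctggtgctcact
Vegfb (minus strand, chr19:6987652-6987901): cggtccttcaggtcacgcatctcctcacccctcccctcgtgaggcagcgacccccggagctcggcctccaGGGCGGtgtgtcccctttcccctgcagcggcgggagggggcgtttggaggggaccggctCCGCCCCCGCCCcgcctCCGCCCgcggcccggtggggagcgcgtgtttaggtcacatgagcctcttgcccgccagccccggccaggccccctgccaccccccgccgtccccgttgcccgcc

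These 4 promoters held 2, 2, 1 and 4 matches in the order shown. In all, 6 of the 10 ligands had entries, with 9 start sites, and 8 of the 9 held GGGCGG on either strand, against 32.7% of 32851 promoters of the same length. The GC content of the 4 printed promoters was 59.2% for Vegfa, 71.6% for Vegfc, 56.8% for Adm and 76.4% for Vegfb, against a median of 52.4% over all promoters. The letters ACGTG, the core of the HIF response element, or CACGT on the other strand occurred at 1 of the 9 start sites, a second start of Vegfa, against 16.6% of all promoters. Of the 9 windows 5 lie partly or wholly in annotated exons of their own gene: 218 of the 250 bases at that second start of Vegfa, all 250 at both starts of Pgf, and 86 and 93 bases at those of Pdgfa. TATAAA on either strand occurred at none of the 9 sites, against 12.4%. Only these exact letters were searched, so variants such as TATAAG in the printed Adm promoter are not counted. These are matches of letters in 1 window and describe no binding.

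Depth came to 17630755 counts for C1, to 67028365 for C2 and to 47577315 for C3, and levels are given as CPM, in which each count is scaled by its library's total. The cells carried epithelial markers (6 of 6 at 1 CPM or more in every library, summing to 3491, 3526 and 3803 CPM in C1, C2 and C3). Endothelial markers reached 1 CPM in 0 of 9 cases and summed to 0.624, 0.239 and 0.378 CPM, with Kdr, Tek, Cdh5 and Cldn5 at 2, 1, 2 and 1 counts over all libraries. Pericyte markers (0 of 5) summed to 0.510, 0.373 and 0.189 CPM, with Pdgfrb and Des at 1 count each. Fibroblast markers (0 of 6) summed to 1.36, 1.87 and 1.83 CPM, with Lum and Thy1 at 0. Platelet markers (0 of 4) summed to 1.19, 1.70 and 1.72 CPM. Leukocyte markers (2 of 8 at 1 CPM) were highest in C1, at 20.1 CPM in sum against 9.83 in C2 and 10.2 in C3. In bulk RNA, fewer cells of a type and less RNA per cell cannot be told apart.

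PDGF and VEGF genes took most of the counts of angiogenic ligands, and the angiopoietins and Angptl4 stood near or below the threshold of 1 CPM. The 10 genes summed to 229, 213 and 259 CPM in C1, C2 and C3. Of the 10 genes 8 reached 1 CPM in every library, against 33.8% of all symbols in the table, and 5 averaged 10 CPM or more, against 26.8%.

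Pdgfb, whose homodimer recruits pericytes, had the most counts. It stood at 82.6, 74.5 and 93.9 CPM in C1, C2 and C3, a mean of 83.7 ± 9.72 CPM (SD, n = 3). Pdgfa, which encodes the PDGF-A chain, stood at 40.8, 39.9 and 44.6 CPM in C1, C2 and C3. In both genes C3 was highest and C2 lowest, and the 95% exact binomial intervals of C3 lay above those of C2 (42.7 to 46.5 against 38.4 to 41.5 CPM for Pdgfa). These intervals hold counting error alone, because each comes from the counts of a single library. The reads carry no molecular identifiers, so copies of the same molecule are not told apart. In the annotation 813 of the 3119 exon bases of Pdgfa are shared with 6330403L08Rik on the opposite strand, itself at 2.95 ± 0.395 CPM, and the strand setting of the counting is not given in the sources used here.

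Of the VEGF family, Vegfa stood at 45.0, 44.5 and 55.2 CPM in C1, C2 and C3. The ratio of C1 to C2 was 1.01 (95% counting interval 0.933 to 1.09), and C3 lay above both. The transcripts of Vegfa encode isoforms that differ in their binding to matrix, and gene counts do not separate them. Vegfb stood at 40.7, 36.8 and 40.1 CPM in C1, C2 and C3, with C2 lowest and C1 and C3 within each other's intervals. Vegfc stood at 10.5, 9.59 and 14.5 CPM in C1, C2 and C3. C3 was again highest, with an interval of 13.5 to 15.7 CPM that reached neither that of C1 (9.04 to 12.1) nor that of C2 (8.87 to 10.4).

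Pgf had 61, 183 and 209 counts, or 3.46, 2.73 and 4.39 CPM in C1, C2 and C3. The intervals of C3 and C2 did not overlap, while C1 overlapped both. Adm had 60, 108 and 155 counts, or 3.40, 1.61 and 3.26 CPM in C1, C2 and C3. C2 was lowest, with an interval of 1.32 to 1.95 CPM below those of C1 (2.60 to 4.38) and C3 (2.77 to 3.81), and C1 and C3 overlapped.

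The angiopoietins were scarce. Angpt2 had 18, 112 and 74 counts (1.02, 1.67 and 1.56 CPM in C1, C2 and C3), and Angpt1 had 21, 63 and 50 counts (1.19, 0.940 and 1.05 CPM). Angptl4, a secreted inhibitor of lipoprotein lipase that PPAR factors and HIF induce, had 10, 40 and 29 counts (0.567, 0.597 and 0.610 CPM). The intervals of the 3 libraries overlapped in each of these genes. In Angpt1, 737 of 5205 exon bases lie opposite to Gm17473, which had 0 counts. Differences between libraries of the size seen in Vegfa were not detectable in these genes at this depth: the ratio of C3 to C2 for Angptl4 was 1.02, with a 95% interval from 0.611 to 1.69.

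**Figure D1:**
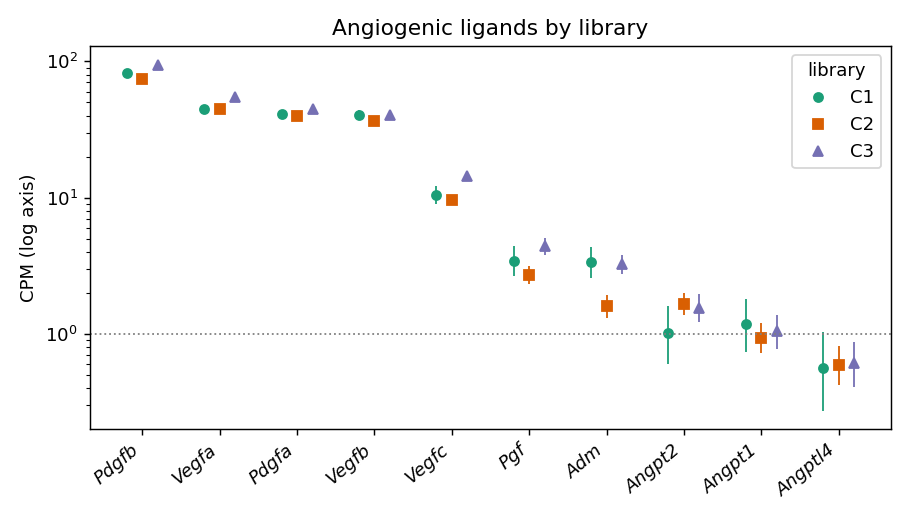
CPM of each ligand in the libraries C1, C2 and C3 on a log axis, with exact 95% binomial intervals as bars and a dotted line at 1 CPM. Pdgfb is highest, between 74.5 and 93.9 CPM, and Angptl4 lies below the line in all libraries.

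Levels of different genes were compared per length, as CPM per kilobase of exon, with the gene's exon length from GENCODE M21. On that scale Vegfb, a short gene of 1605 exon bases, was highest at 24.4 ± 1.31 CPM per kb (SD, n = 3) and lay above 78.7% of the 11545 genes that reached 1 CPM and had a length. Pdgfb followed at 20.1 ± 2.34 CPM per kb, Pdgfa at 13.4 ± 0.800 CPM per kb and Vegfa at 11.3 ± 1.40 CPM per kb, above 58.9% of these genes. Vegfc stood at 4.71 ± 1.07 CPM per kb. Adm at 1.70 ± 0.615 and Pgf at 1.22 ± 0.287 CPM per kb lay above 13.9% and 9.94% of the genes. Angpt2 (0.384 ± 0.0940 CPM per kb), Angpt1 (0.204 ± 0.0242 CPM per kb) and Angptl4 (0.167 ± 0.00613 CPM per kb) were lowest.

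The order was set by the means of these same libraries. Steps above 0 on average therefore follow from the sorting, which also favours agreement over the libraries. On average each of the 9 steps exceeded the SD of its log2 ratio over the libraries. Each was above 0 in 3 of 3 libraries, but 3 steps were weak. In single libraries a step could fall below that SD, as from Angpt2 to Angpt1 in C1 (0.28 against an SD of 0.54). The step from Vegfb to Pdgfb was 0.29 ± 0.12 on the log2 scale (SD, n = 3) and that from Adm to Pgf 0.44 ± 0.37, and division by the longest annotated transcript made them 0.11 and 0.18, less than their SD. The step from Angpt1 to Angptl4 was 0.26 ± 0.20, and the ratio of their summed counts per length was 1.15 with a 95% counting interval from 0.867 to 1.54, so these neighbours were not told apart. The step from Vegfa to Vegfc was 1.27 ± 0.15 and that from Pgf to Angpt2 1.66 ± 0.54. No test is attached to these ratios, because the smallest p that an exact sign-flip test can give with 3 libraries is 0.25.

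Within the families, Vegfa was below Vegfb per length, with a log2 ratio of -1.12 ± 0.16 (SD, n = 3), and 9.35-fold above Pgf (3.22 ± 0.21 on the log2 scale). In CPM, without the correction, the ratio of Vegfa to Vegfb was 0.29 ± 0.16 on the log2 scale. The log2 ratio of Pdgfa to Pdgfb was -0.58 ± 0.09 per length and that of Angpt1 to Angpt2 -0.89 ± 0.54 per length.

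**Figure D2:**
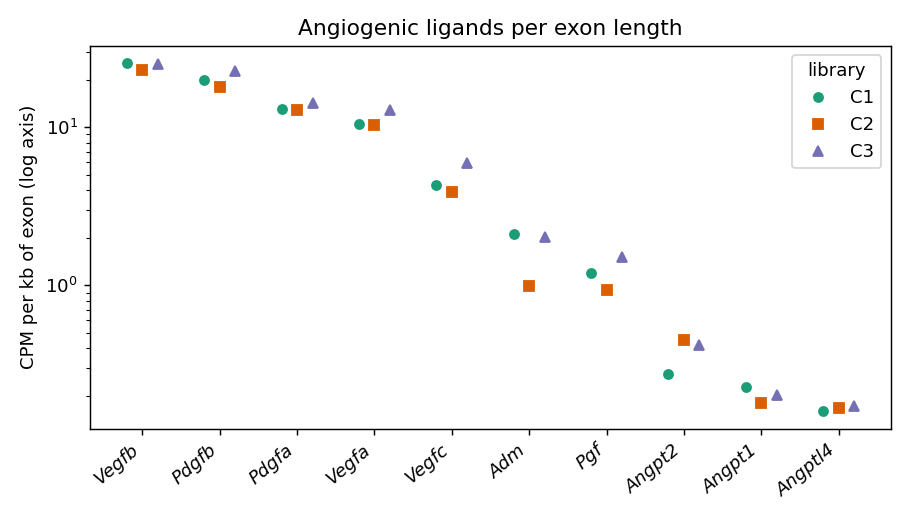
CPM per kilobase of exon of each ligand in the libraries C1, C2 and C3, on a log axis, ordered by the mean. Vegfb leads at 24.4 CPM per kb on average and Angptl4 is last at 0.167 CPM per kb.

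Levels of 7 of the 10 ligands differed between the libraries by more than counting noise. These were Vegfa, Vegfb, Vegfc, Pgf, Pdgfa, Pdgfb and Adm (Poisson dispersion test across 13026 genes, Benjamini-Hochberg adjusted p between 2.13e-27 for Pdgfb and 0.0121 for Vegfb). The background of that call was 39.3% of all genes tested. Among genes at 10 CPM or more it was 49.3%, and the 5 ligands at that level were all called. The count was 2 without C3 (Pdgfb and Adm), against a background of 12.9% in that fit. It was 3 without C2 (Vegfa, Vegfc and Pdgfb), against 13.8%, and 7 without C1, against 36.8%. A fit with fewer libraries also holds fewer counts. Angpt1, Angpt2 and Angptl4, which had the fewest counts, did not pass.

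Against genes of similar level, none of the 10 ligands passed the threshold. The edgeR quasi-likelihood F test, adjusted over 13026 genes, called 0 of 10 ligands against a background of 0.0691% (9 genes). The DESeq2 flag for outlying dispersion also marked 0 of 10, against a background of 0.768%. At an unadjusted p under 0.05 the edgeR test held 5 ligands, against a background of 5.15% of all genes. These were Adm, with a dispersion 9.71 times the trend (adjusted p = 0.518), Vegfc at 9.01 times (adjusted p = 0.559), Pdgfb at 7.54 times, Vegfa at 6.43 times and Pgf at 4.64 times. The number was 1 without C3, when only Adm was left, against a background of 4.77%. It was 3 without C2 (Vegfa, Vegfc and Pdgfb), against 5.50%, and 5 without C1, against 5.82%. In the robust fit it was 5, against 4.51%. A fit without the filter on low counts called 2 ligands after adjustment, Vegfc (edgeR, adjusted p = 0.0242) and Adm (adjusted p = 0.0180), and its background was 0.910% (171 of 18797 genes). In that fit the prior degrees of freedom were infinite, so that every gene was held to the trend.

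Most ligands were lowest in the same library. C2 was the lowest library for 8 of 10 ligands, against 33.6% of all genes tested. C3 was the highest for 6 of 10, against 34.0%. In Vegfa, Vegfc, Pgf, Pdgfa and Angpt1 the 95% counting interval of the ratio of C1 to C2 included 1. It ran from 0.933 to 1.09 for Vegfa and from 0.734 to 2.11 for Angpt1, and lay above 1 for Vegfb, Pdgfb and Adm. Vegfa, Vegfc, Pgf, Pdgfa and Pdgfb, 5 of 10, were both lowest in C2 and highest in C3, as were 18.9% of all genes tested. Among the 671 genes with an unadjusted p under 0.05 this order was more frequent, at 41.6%, and 4 of the 5 ligands in that class had it. The exception was Adm, highest in C1. The median log2 deviation of the 10 ligands from their own means was -0.02 in C1, -0.13 in C2 and 0.17 in C3, where that of all genes tested was 0.00163, 0.00273 and -0.00325. C2 was also the deepest library, and 5 of 6 epithelial markers were highest in C3, while Cdh1 was lowest there (437, 463 and 431 CPM in C1, C2 and C3); their part in the result was not tested.

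The ratio of C3 to C2 in CPM was 1.24 for Vegfa (95% counting interval 1.18 to 1.31), 1.26 for Pdgfb (1.21 to 1.31), 1.51 for Vegfc (1.36 to 1.69), 1.61 for Pgf (1.31 to 1.97) and 2.02 for Adm (1.57 to 2.61). It was 1.12 for Pdgfa (1.06 to 1.18). For Adm the ratio of C1 to C2 was 2.11 (1.51 to 2.92). Leukocyte markers summed to 20.1 CPM in C1 against 9.83 CPM in C2, and their part in the level of Adm was not tested. Lyz2 held 9.42 CPM of the sum in C1 and 3.12 CPM of it in C2. In all, 7 of these 8 markers were highest in C1, whereas Ptprc, which marks all leukocytes, was lowest there, at 1, 8 and 13 counts in C1, C2 and C3 (0.0567, 0.119 and 0.273 CPM). In C3, where Adm stood at 3.26 CPM, these markers summed to 10.2 CPM.

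The genes above 10 CPM whose deviations lay nearest to those of Adm, the ligand with the largest dispersion ratio, were Neat1, Mmp3 and 2610203C20Rik, at distances of 0.23, 0.25 and 0.25 on the scale of log2(CPM + 1) over 3 libraries, of 9256 genes searched. Neat1, a nuclear noncoding RNA, stood at 289, 212 and 293 CPM in C1, C2 and C3. Mmp3, a matrix metalloproteinase, stood at 14.2, 10.4 and 14.6 CPM. The added 1 CPM shrinks the deviation of Adm in C2 to -0.49, from -0.70 on the scale of log2 CPM. The deviations of Neat1, Mmp3 and 2610203C20Rik in C2 were smaller, at -0.30, -0.29 and -0.29 on the scale with 1 CPM added.

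**Figure D3:**
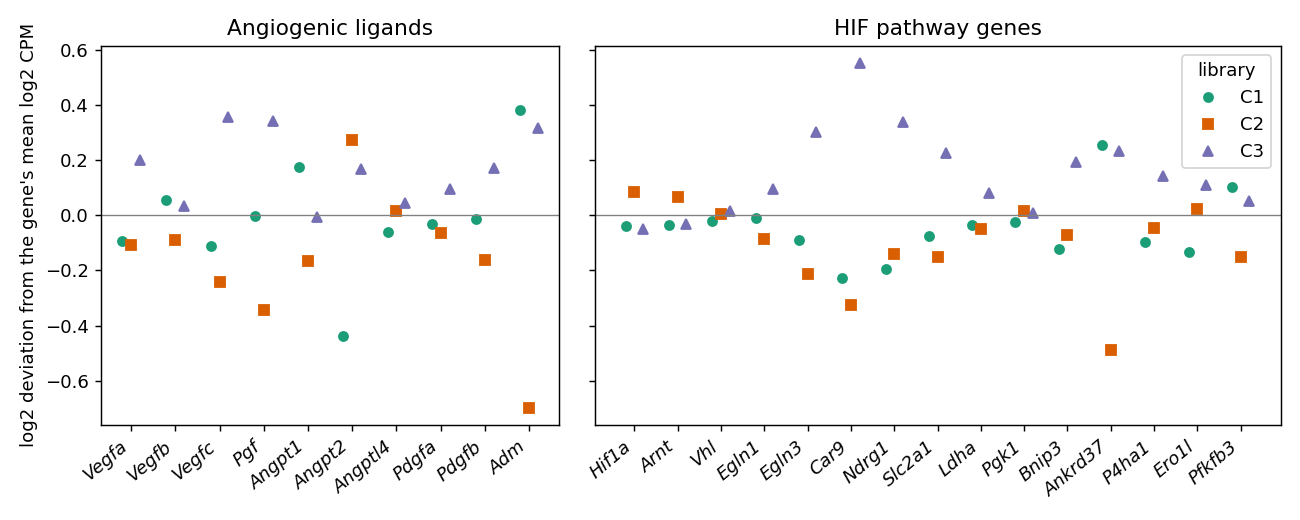
Deviation of each library (C1, C2, C3) from the gene's mean log2 CPM, for the 10 ligands on the left and for 15 HIF pathway genes with counts in every library on the right. C3 is above 0 for every ligand but Angpt1 and for every HIF pathway gene but Hif1a and Arnt. C2 is lowest for 8 of the 10 ligands and for 7 of the 15 HIF pathway genes. C1 is lowest for 2 of the ligands and for 7 of the HIF pathway genes.

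HIF activates several of these ligands, and most HIF pathway genes were well above 1 CPM. Of 16 listed genes 15 reached 1 CPM in every library, against 33.8% of all symbols in the table. The oxygen-regulated subunit Hif1a stood at 228 ± 11.9 CPM (SD, n = 3) and its partner Arnt at 61.5 ± 2.43 CPM, whereas the second subunit gene Epas1 had 1 count over all libraries. The targets with the most counts were the glycolytic Ldha (2075 ± 104 CPM), Pgk1 (509 ± 7.95 CPM) and Ndrg1 (344 ± 73.4 CPM). C3 was the highest library for 10 of the 15 genes tested, against 34.0% of all genes tested. C1 was the lowest for 7 of the 15 and C2 for 7. The order of Vegfa, lowest in C2 and highest in C3, was found in 5 of 15, against 18.9% of all genes tested. Car9, a carbonic anhydrase of hypoxic tumours, stood at 32.4, 30.3 and 55.7 CPM in C1, C2 and C3 and was the 1 gene of the list that passed the F test (edgeR, adjusted p = 0.0298). That call was lost in the robust fit (edgeR, adjusted p = 0.996) and without C3 (adjusted p = 0.986). Ndrg1 did not pass in the fit of all libraries (edgeR, adjusted p = 0.0742). Ndrg1 passed without C1 (edgeR, adjusted p = 0.0410), without C2 (adjusted p = 0.000659) and with no filter on low counts (adjusted p = 2.53e-09). Egln3, a HIF prolyl hydroxylase, passed without C1 (edgeR, adjusted p = 0.0485) and with no filter (adjusted p = 0.000303). Slc2a1 (edgeR, adjusted p = 0.0112) and Ankrd37 (adjusted p = 0.0274) also passed with no filter. In the robust fit Ndrg1, Egln3, Slc2a1 and Ankrd37 did not pass (edgeR, adjusted p = 0.996 for each). In the fit of all libraries 8 of 15 had an unadjusted p under 0.05, against a background of 5.15%. The DESeq2 flag marked 4 of 15 (Egln3, Car9, Ndrg1 and Slc2a1), against a background of 0.768%. Ankrd37, a HIF target, had the order of Adm, at 6.81, 4.06 and 6.70 CPM. Hif1a stood at 222, 242 and 220 CPM in C1, C2 and C3. These are counts of RNA, and the part of HIF in the levels of the ligands was not tested.

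Receptors for these ligands were unevenly present in the same cells. Of 13 receptor genes 5 reached 1 CPM in every library, against 33.8% of all symbols in the table. Nrp2 and Nrp1, coreceptors for VEGF ligands and semaphorins, stood at 345 ± 15.6 and 91.8 ± 2.45 CPM (SD, n = 3), and Flt1, which binds the products of Vegfa, Vegfb and Pgf, at 34.3, 37.3 and 38.7 CPM in C1, C2 and C3. Kdr had 2 counts over all libraries and Flt4, the receptor for VEGF-C, had 0, for which a floor of 3 counts is 0.170, 0.0448 and 0.0631 CPM in C1, C2 and C3. Tek had 1 count and Tie1 had 5. Pdgfra stood at 18.3 ± 1.03 CPM and Pdgfrb had 1 count. Of the adrenomedullin receptor genes Calcrl averaged 0.429 CPM, Ramp2 0.326 CPM and Ramp3 0.210 CPM, and Ramp1, which with Calcrl forms the receptor for CGRP, averaged 1.39 CPM. Per length the ligand Pdgfb (20.1 CPM per kb) and the receptor Pdgfra (1.83 CPM per kb) were thus both measured, and so were Vegfb (24.4 CPM per kb) and Flt1 (2.72 CPM per kb). By the edgeR F test 0 of 7 receptors tested passed, and 0 had an unadjusted p under 0.05, against 5.15% of all genes tested. Of the 7, only Nrp2 passed the Poisson test (adjusted p = 1.59e-09), against 39.3% of all genes tested.

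**Figure D4:**
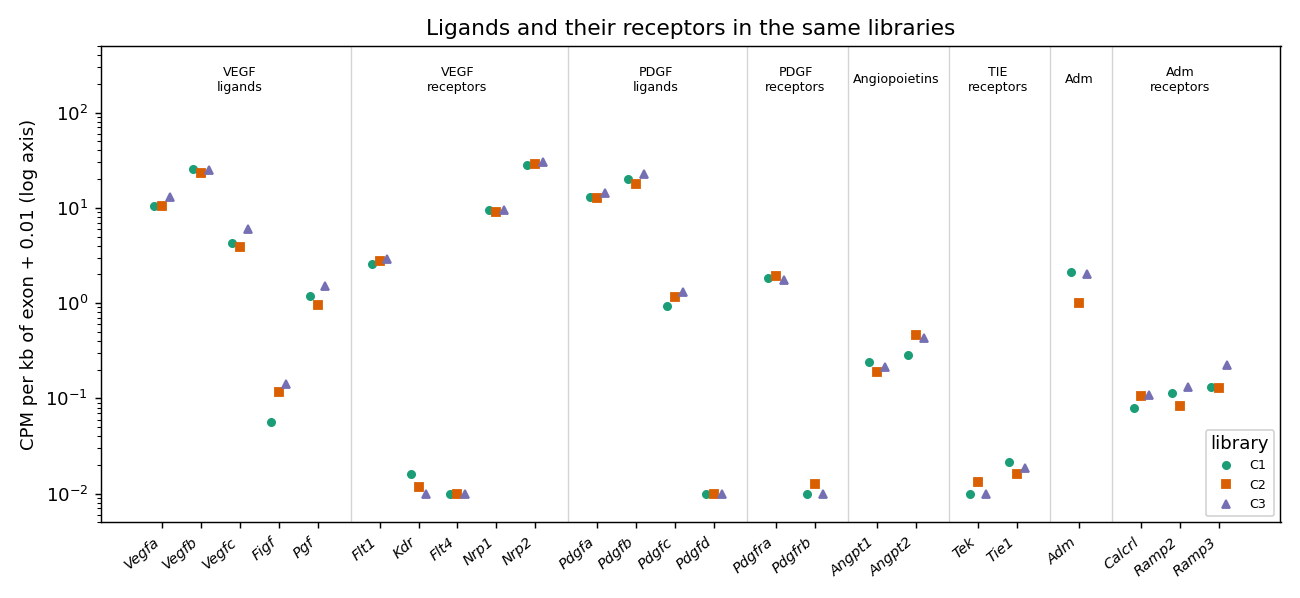
CPM per kilobase of exon, with 0.01 added for the log axis, of ligands and of their receptors in the libraries C1, C2 and C3. Flt1, Nrp1, Nrp2 and Pdgfra lie between 1 and 100 in all libraries, whereas Kdr, Flt4, Pdgfrb and Tek are at or near the value that stands for 0.

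Genes that take part in processing these ligands, or others of their families, were present in part. In every library 6 of 8 reached 1 CPM, against 33.8% of all symbols in the table, and 2 had 0 counts. VEGF-C is cut by the protease ADAMTS3, which CCBE1 activates, and by proprotein convertases. Ccbe1 stood at 222, 206 and 283 CPM in C1, C2 and C3, in the order of Vegfc, which 18.9% of all genes tested had. Adamts3 had 0 counts in all libraries. Ccbe1 did not pass the F test after adjustment (edgeR, adjusted p = 0.176), nor did any of the 6 tested. Of the 6, 2 had an unadjusted p under 0.05, against 5.15% of all genes tested, and 2 carried the DESeq2 flag, against 0.768%. With no filter on low counts Ccbe1 (edgeR, adjusted p = 2.79e-05) and Plau (adjusted p = 0.00862) passed. In the robust fit neither Ccbe1 nor Plau passed (edgeR, adjusted p = 0.996 for each). The convertase gene Furin stood at 105 ± 8.10 CPM (SD, n = 3), Pcsk7 at 23.2 ± 2.47 CPM and Pcsk5 at 0 counts. Pam, which amidates adrenomedullin and other peptides, stood at 213 ± 4.87 CPM, at 214, 217 and 208 CPM in C1, C2 and C3, lowest in C3. The plasminogen activator genes Plau and Plat, whose products can activate PDGF-D and PDGF-C, stood at 92.4 ± 13.7 and 5.13 ± 0.234 CPM.

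Among 9 further genes of the same families 2 reached 1 CPM in every library, against 33.8% of all symbols in the table, and 2 had 0 counts. Angptl2, a secreted angiopoietin-like protein, stood at 117, 108 and 135 CPM in C1, C2 and C3, or 19.1 ± 2.18 CPM per kb on average. C2 was lowest and C3 highest, as in 18.9% of all genes tested. By the edgeR F test 0 of the 3 genes tested passed after adjustment (adjusted p = 0.651 for Angptl2). Of the 3, 1 had an unadjusted p under 0.05, against 5.15% of all genes tested. Pdgfc averaged 5.71 ± 0.951 CPM, Angptl6 0.871 CPM and Figf, the gene of VEGF-D, 0.227 CPM. Pdgfd and Angptl1 had 0 counts.

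Of 14 other angiogenic factors 7 reached 1 CPM in every library, against 33.8% of all symbols in the table. Efnb2, an ephrin of arterial endothelium, stood at 157 ± 0.289 CPM (SD, n = 3), the EGF-like ligand Hbegf at 99.9, 89.8 and 127 CPM in C1, C2 and C3, and Apln, the ligand of the apelin receptor, at 83.7, 70.9 and 91.7 CPM. Hbegf and Apln had the order of Pdgfb, with C2 lowest and C3 highest, as did 18.9% of all genes tested. Efnb2 was the same in the libraries to within 1 CPM. Jag1, a ligand of Notch receptors, chosen here after its values were seen, stood at 39.4, 34.0 and 54.5 CPM in C1, C2 and C3. None passed the edgeR F test (adjusted p = 0.112 for Jag1, adjusted p = 0.190 for Hbegf and adjusted p = 0.539 for Apln). Of the 7 tested, 4 had an unadjusted p under 0.05, against 5.15% of all genes tested, and 2 carried the DESeq2 flag, against 0.768%. Jag1 passed the F test without C1 (edgeR, adjusted p = 0.00965), without C2 (adjusted p = 0.0487) and with no filter on low counts (adjusted p = 6.5e-07). It had an adjusted p = 0.978 without C3 (edgeR). Hbegf passed without C1 (edgeR, adjusted p = 0.0370) and with no filter (adjusted p = 5.46e-05). In the robust fit neither Jag1 nor Hbegf passed (edgeR, adjusted p = 0.996 for each). Fgf2, Hgf and Cxcl12 had 8, 3 and 1 counts, and Ptn had 0.

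Of 12 listed genes, inhibitors of angiogenesis except for Vash2, 8 reached 1 CPM in every library, against 33.8% of all symbols in the table. Thrombospondin, Thbs1, had the most counts, at 992, 1101 and 1144 CPM in C1, C2 and C3, followed by Col18a1, the source of endostatin, at 262 ± 17.9 CPM (SD, n = 3) and by the protease Adamts1 at 206 ± 28.5 CPM. Per length, the log2 ratio of Vegfa to Thbs1 was -3.99 ± 0.13, negative in 3 of 3 libraries. None passed the edgeR F test after adjustment. Of 8 tested, 2 had an unadjusted p under 0.05, against 5.15% of all genes tested, and 1 carried the DESeq2 flag, against 0.768%. Adamts1 passed with no filter on low counts (edgeR, adjusted p = 0.00474) but not in the robust fit (adjusted p = 0.996).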

How the data were processed

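Raw read counts per gene symbol were deposited for 3 libraries, not normalized, as whole numbers with differing totals. The authors' processing named CASAVA 1.7, BWA, STAR, HTSeq and mouse build mm9 without saying which did what, per the submitters' processing notes. The kit preserved strand, per the labels' protocols; annotation, strand setting and the handling of reads with several matches are not given in the sources used. Column names match no sample title, so columns were assigned to the group. No source says whether libraries came from separate cultures, so p-values and SDs cover the spread between these samples, which may be technical.

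CPM used column totals. Exon length (union of exons, or longest transcript) came from GENCODE M21 on GRCm38, for 31490 of 34591 symbols and all 10 ligands. Spread was tested on 13026 genes kept by filterByExpr, with TMM scaling and an intercept-only fit in edgeR 4.0.16 (R 4.3.3): a Poisson chi-square test with 2 degrees of freedom, and the ratio of quasi-likelihood dispersion to its trended prior (the F test); p-values were adjusted by Benjamini-Hochberg, with a threshold of 0.05. DESeq2 1.42.0 was an alternative. Ratios used 0.5 added counts. Genes named are the ligands, the most abundant members of each list, members at 0 counts and those past the F test; other genes were chosen for their role or order after their values were seen, and cell type markers are given mainly as sums; some genes of these families are not reported here. Ligands and lists were chosen with earlier results of these data known.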

Additional observations from a re-analysis of the deposited data

How the results depend on the processing

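The mean CPM of each ligand moved by less than 1 SD under TMM scaling and DESeq2 size factors. The count of 8 ligands at 1 CPM in every library was 5 at a threshold of 5 CPM. The number of genes with spread beyond counting noise (5118) ranged from 1667 to 4908 when a library was left out, and that of ligands (7) from 2 to 7. Genes past the edgeR F test (9) ranged from 3 to 52 when a library was left out and numbered 14 with column totals, 171 with no filter on low counts, 100 by the DESeq2 dispersion flag and 0 in the robust fit, where 588 had an unadjusted p under 0.05. Ligands past it (0) were 2 with no filter, where the prior degrees of freedom were infinite, and ligands at an unadjusted p under 0.05 (5) ranged from 1 to 5 without single libraries. The log2 ratio of Vegfa to Vegfb (0.29 in CPM) reversed to -1.12 per exon length and -1.14 per longest transcript, and that of Vegfa to Pdgfa (0.20) to -0.26 and -0.54, by division by length itself. The longest transcript and the adjusted deviances of edgeR were added after seeing the data. With adjusted deviances the F test called 9 genes, and the ligands at an unadjusted p under 0.05 numbered 5. Depth limits Angpt1, Angpt2 and Angptl4, which had 134, 204 and 79 counts in all. No paired analysis was possible because there was 1 group.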

Other observations

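PPAR factors and lipid genes that share regulation with Angptl4 were present in part. Ppard, the PPAR that is widely expressed, stood at 68.1, 60.8 and 75.1 CPM in C1, C2 and C3, and its partner Rxra at 49.0 ± 2.09 CPM (SD, n = 3). Pparg had 12 counts and Ppara 1 count over all libraries. Of the PPAR targets, Plin2, which coats lipid droplets, stood at 112 ± 6.09 CPM and Cpt1a, which admits fatty acids to mitochondria, at 19.0 ± 0.769 CPM. Pdk4 had 3 counts. In all, 4 of these 7 genes reached 1 CPM in every library, against 33.8% of all symbols in the table. After adjustment 0 of the 4 tested passed the edgeR F test. Of the 4, 1 had an unadjusted p under 0.05, against 5.15% of all genes tested.

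Wisp2, the over-expressed gene, stood at 429, 384 and 454 CPM in C1, C2 and C3. It was lowest in C2 and highest in C3, as were Vegfa, Vegfc, Pgf, Pdgfa and Pdgfb and 18.9% of all genes tested. In Vegfa, Vegfc, Pgf and Pdgfa the 95% counting interval of the ratio of C1 to C2 included 1. Gene counts do not separate the introduced gene from the endogenous one, and a relation across 3 libraries of 1 group was not tested.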
